A study of Mus musculus with 75 samples.

Results

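Late-G1 chromatin loops under 500 kb with a CTCF peak at both anchors but a Rad21 peak at only 1 anchor, or at neither, are described here. Rad21 is a core subunit of cohesin. Of 11340 loops called in late G1, 10738 were under 500 kb, and 1272 of these, or 11.8%, met the rule. Rad21 lay at 1 anchor in 1151 of the 1272 and at no anchor in 121. The members were chosen by the late-G1 loop, CTCF and Rad21 lists, so their late-G1 CTCF and Rad21 status is a description and not a result. Over all 21476 anchors of loops under 500 kb, 75.5% had CTCF and 67.6% had Rad21 in late G1. They are set beside the 5357 loops of the same size range with both proteins at both anchors, called complete loops here, and in places beside the 2957 loops with CTCF at 1 anchor. The anchors of the 1272 loops were of 2 kinds: 1393 anchors had CTCF without Rad21 (lacking anchors), and 1151 anchors of the same loops had both proteins (bearing anchors).

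CTCF is a zinc-finger protein that binds DNA at a directional sequence motif. In the loop extrusion model, ring-shaped cohesin complexes reel in chromatin until they meet CTCF, so the base of a loop is usually marked by both proteins in ChIP-seq. Cohesin and much of the CTCF leave chromosomes in mitosis and return as cells enter G1.

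The cells were G1E-ER4, a subline of the mouse erythroid precursor line G1E, which is of strain 129 and lacks the transcription factor GATA1; the labels name no inducing agent. All stages came from 1 line, arrested for 7 to 8.5 h by nocodazole at 200 ng/ml, released and flow sorted. The stages were pro-metaphase (0 min after release), ana/telophase (25 min), early G1 (60 min), mid G1 (120 min) and late G1 (240 min), and asynchronous cells were added for ChIP-seq. In situ Hi-C had 2 samples per stage, and the CTCF and Rad21 ChIP-seq groups had 2 each, save for CTCF in pro-metaphase with 3. Each deposited list pools the replicates of its stage. There is therefore no replicate spread, no test and no p-value for any comparison here, and the depth per sample is unknown. Intervals in parentheses are 95% intervals that cover counting error only, and they treat loops as independent although loops share anchors: the 1393 lacking anchors were 1333 distinct intervals in 1178 separate stretches. Cell identity was not checked against marker genes, since the lists give positions and no genes.

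The loops without full Rad21 had lower contact ratios than complete loops, and a smaller share of them was long than of complete loops. Their median size was 160 kb (150 to 170), with quartiles at 100 and 230 kb, against 170 kb (160 to 170) in complete loops, whose upper quartile was 250 kb. The difference of the medians was -10 kb, with an interval of -20 to 4.14 kb that includes 0. It was -20 kb (-20 to -5.86) with anchors widened by 10 kb and -10 kb (-20 to -10) with the asynchronous Rad21 list. Sizes of 300 to 390 kb made up 8.02% (6.59 to 9.65) of the 1272 loops and 12.1% (11.2 to 13.0) of complete loops. They made up 9.12% of all late-G1 loops under 500 kb and 6.15% of loops with CTCF at 1 anchor. All loops under 500 kb had a median size of 160 kb, with quartiles at 100 and 230 kb. The sizes of the 1272 loops were thus near those of all loops in this range. The strength of a loop is given as the authors' observed contact value at its highest pixel divided by their expected value. This observed/expected ratio had a median of 2.98 (2.93 to 3.06) in the 1272 loops and 3.78 (3.73 to 3.86) in complete loops, a difference of -0.80 (-0.89 to -0.71). A ratio of at least 5 was reached by 95 of 1272 loops, 7.47% (6.08 to 9.05), against 1500 of 5357 complete loops, 28.0%. It was reached by 16.6% of all loops under 500 kb and by 4.06% of loops with CTCF at 1 anchor. The observed value differed and the expected value did so less: the median observed value was 25.5 in the 1272 loops and 32.5 in complete loops, and the median expected value was 8.11 and 7.82 in the same 2 sets. Loops with CTCF at 1 anchor had a median ratio of 2.87, which was 0.11 (0.05 to 0.19) below the 1272 loops. The ratio thus lay much closer to that of loops missing a CTCF peak than to that of complete loops.

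The weaker contact was present at every size. In loops under 100 kb the median ratio was 2.36 in the 268 loops with incomplete Rad21 and 2.67 in complete loops. At 100 to 190 kb it was 2.87 in 559 loops and 3.69 in complete loops. Complete loops had higher ratios in each longer size class, whereas the medians of the loops with incomplete Rad21 were close to each other in the 3 longest classes. Their median was 3.54 in the class of 200 to 290 kb, against 4.43 in complete loops. It was 3.68 for 300 to 390 kb, against 4.77, and 3.53 for 400 to 490 kb, against 5.29. The difference at 400 to 490 kb, over 48 loops with incomplete Rad21, was -1.76 (-2.18 to -1.32). At the size limit, 3 members measured 490 kb, with a median ratio of 2.56, and no loop of 500 kb met the other conditions.

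**Figure D1:**
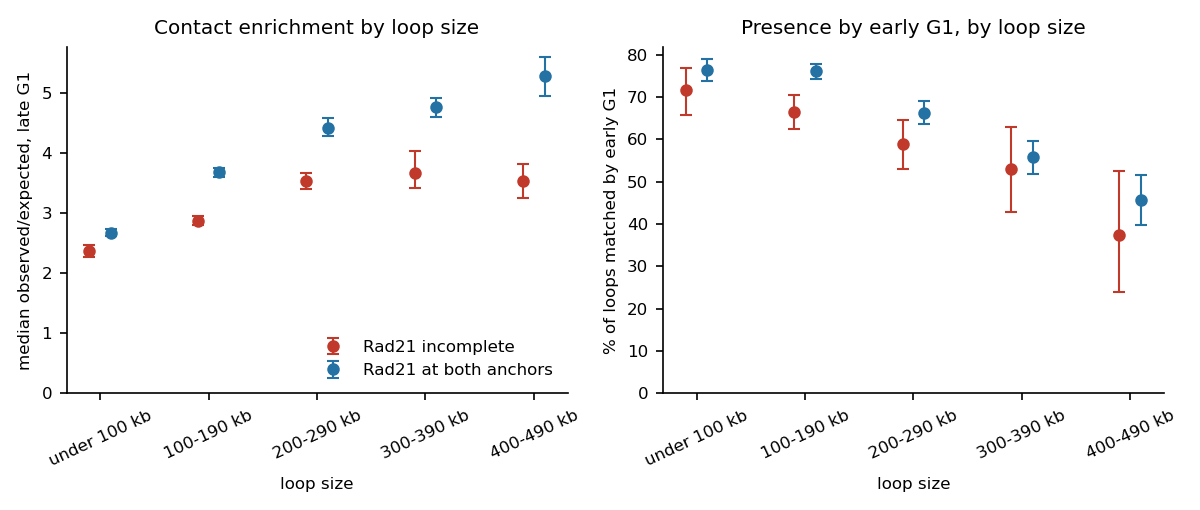
Loops with incomplete Rad21 (red, left of each pair) and complete loops (blue) by size class, as the median late-G1 observed/expected ratio (left panel) and the percent of loops with a match by early G1 (right panel); bars are 95% intervals of counting error. The red ratio lies below the blue in all 5 classes, 2.36 against 2.67 under 100 kb and 3.53 against 5.29 at 400 to 490 kb, while the shares matched by early G1 lie closer together.

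Most of these loops had a match by early G1, less often than complete loops. A loop was taken as present in an earlier stage if a loop there had both anchors within 20 kb. By pro-metaphase 3 of the 1272 loops had a match, against 0.754% of all late-G1 loops under 500 kb. By ana/telophase 91 had one, 7.15% (5.80 to 8.71), against 8.74% (7.99 to 9.52) of complete loops and 8.50% of all loops under 500 kb. By early G1 the share was 63.7% (61.0 to 66.3) of the 1272 loops, 69.9% (68.6 to 71.1) of complete loops and 66.8% of all loops. By mid G1 it was 85.5% of the 1272 loops, 89.9% of complete loops and 86.4% of all loops. The difference from complete loops was -6.21 percentage points (-9.19 to -3.28) by early G1 and -1.58 (-3.15 to 0.14) by ana/telophase, where the interval includes 0. The early-G1 difference depended on the matching: it was -2.91 points (-5.72 to -0.19) with both anchors within 40 kb. It was -9.72 points (-13.4 to -6.08) without loops that had another complete loop within 20 kb at both anchors. No match in any earlier stage was found for 185 loops, 14.5% (12.7 to 16.6), against 10.1% of complete loops. That share was 13.6% of all loops under 500 kb and 17.8% of loops with CTCF at 1 anchor.

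The early-G1 difference had the same sign in all 5 size classes and was largest at 100 to 190 kb. There 66.5% of the loops with incomplete Rad21 and 76.2% of complete loops had a match by early G1, a difference of -9.62 points (-14.1 to -5.30). Under 100 kb the shares were 71.6% and 76.5% in the same order, and at 300 to 390 kb they were 52.9% and 55.9%. The intervals of the difference included 0 in those 2 classes and at 400 to 490 kb. Loops with CTCF at 1 anchor had a match by early G1 in 64.4% of cases, and the 1272 loops minus these gave -0.677 points (-3.89 to 2.50). Among loops with a match in early G1 itself, the match was missing in mid G1 for 65 of 797 loops with incomplete Rad21, 8.16% (6.35 to 10.3). It was missing for 148 of 3725 complete loops, 3.97% (3.37 to 4.65). Over all loops under 500 kb it was missing for 477 of 7100, 6.72%, and with CTCF at 1 anchor for 197 of 1879, 10.5%.

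CTCF was weaker where Rad21 was missing. CTCF strength is the authors' fold enrichment at the summit of the highest peak in an anchor, used here within 1 list at a time. The median late-G1 fold was 13.3 at lacking anchors, 28.9 at the bearing anchors of the same loops and 30.7 at the 10714 anchors of complete loops. A fold of at least 30 was found at 90 of 1393 lacking anchors, 6.46%, at 46.2% of bearing anchors and at 52.2% of complete-loop anchors. Lacking anchors held 2 or more late-G1 CTCF peaks in 24.8% of cases, bearing anchors in 51.3% and complete-loop anchors in 58.4%, although the median anchor was 20 kb wide in each kind. Taken per loop, the weaker anchor had a median fold of 12.7 (12.2 to 13.0) in the 1272 loops and 25.0 in complete loops, and the stronger anchor had 28.8 and 36.3 in the same 2 sets. The difference thus lay mostly at the anchor without Rad21.

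**Figure D2:**
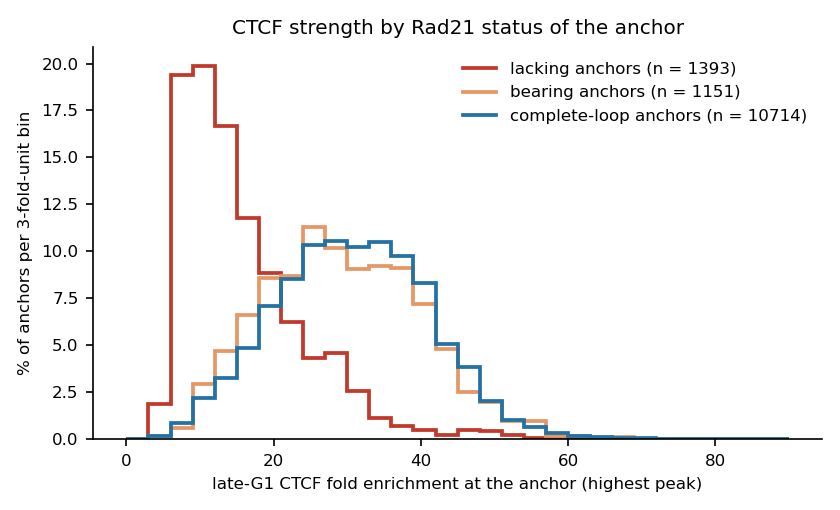
Distribution of late-G1 CTCF fold enrichment at 1393 lacking anchors (red), 1151 bearing anchors of the same loops (orange) and 10714 anchors of complete loops (blue), as percent of anchors per bin of 3 fold units. The red curve is highest near 10 and the other curves near 30, and all overlap between 10 and 40.

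The 1151 loops with Rad21 at 1 anchor allow a comparison within each loop. The lacking anchor had a median of 0.516 times the CTCF fold of its partner in the late-G1 list, and the partner with Rad21 was the stronger in 981 loops, 85.2% (83.0 to 87.2). The same order held in CTCF lists that did not enter the rule. Among loops with CTCF at both anchors in the list, the anchor with Rad21 was the stronger in 57.1% of 161 loops in pro-metaphase and in 73.7% of 868 in ana/telophase. It was the stronger in 79.3% of 1011 loops in early G1, in 80.8% of 1080 in mid G1 and in 80.5% of 1032 in asynchronous cells. The interval in pro-metaphase, 49.1 to 64.9%, includes an even split, and the median ratio of lacking to bearing fold there was 0.846.

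The lacking anchors also had fewer CTCF peaks in mitosis. CTCF was listed in pro-metaphase at 22.4% of lacking anchors, 57.8% of bearing anchors and 62.8% of complete-loop anchors, against 42.0% of the anchors of all loops under 500 kb. In ana/telophase the shares were 79.8% of lacking, 93.9% of bearing and 94.6% of complete-loop anchors, against 71.0% of all anchors. In early G1 they were 88.7% of lacking, 98.6% of bearing and 98.7% of complete-loop anchors, against 74.4% of all anchors, and in mid G1 93.5%, 99.8% and 99.7%, against 76.4%. In asynchronous cells they were 89.7% of lacking, 99.2% of bearing and 99.0% of complete-loop anchors, against 74.8% of all anchors. The mitotic difference went along with CTCF strength. At a late-G1 CTCF fold of 10 to 20, pro-metaphase CTCF was listed at 14.5% of lacking anchors and 14.6% of bearing anchors. At 20 to 30 it was listed at 49.2% of lacking and 48.5% of bearing anchors. At 30 to 40 it was listed at 61 of 65 lacking anchors, 93.8%, and at 77.5% of bearing anchors.

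CTCF strength and Rad21 moved together over the whole late-G1 list. Of 6735 CTCF peaks with a fold under 10, 16.4% overlapped a late-G1 Rad21 peak. The share was 41.0% at 10 to 20, 73.8% at 20 to 30, 88.2% at 30 to 40 and 92.3% at 40 and over. The contact ratio was therefore compared within bins of the weaker anchor's CTCF fold. At a fold under 10 the median ratio was 2.97 in 383 loops with incomplete Rad21 and 3.30 in 169 complete loops. At 10 to 20 it was 2.97 (2.91 to 3.10) in 645 loops and 3.72 (3.63 to 3.88) in 1348 complete loops. At 20 to 30 it was 3.12 in 199 loops and 3.76 in 2284 complete loops, and at 30 to 40 it was 2.82 in 39 loops and 3.92 in 1323 complete loops. The contact ratio was thus lower without full Rad21 at like CTCF fold in each of these 4 bins, with intervals that did not overlap. At 40 and over there were 6 loops with incomplete Rad21.

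Within CTCF bins the early-G1 difference was smaller in the 3 lowest bins. By early G1 a match was found for 63.7% of loops with incomplete Rad21 and 65.7% of complete loops at a fold under 10. The shares were 62.5% and 64.8% at 10 to 20, and 66.8% and 68.3% at 20 to 30, with intervals that overlapped in each bin. At 30 to 40 the share was 61.5% (44.6 to 76.6) of 39 loops with incomplete Rad21 and 75.9% (73.5 to 78.2) of complete loops. Complete loops were matched by early G1 more often in bins of higher CTCF fold, up to 83.7% at 40 and over. Without loops that had another complete loop within 20 kb at both anchors, the share matched by early G1 was 56.3% of 261 loops with incomplete Rad21 and 59.7% of 134 complete loops at a fold under 10. It was 54.1% (49.3 to 58.8) of 442 and 59.6% (56.5 to 62.6) of 1014 at 10 to 20, and 58.7% (50.0 to 67.0) of 138 and 64.7% (62.4 to 66.9) of 1718 at 20 to 30, in the same order. These shares were lower in the loops with incomplete Rad21 in each of the 3 bins, with intervals that overlapped.

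**Figure D3:**
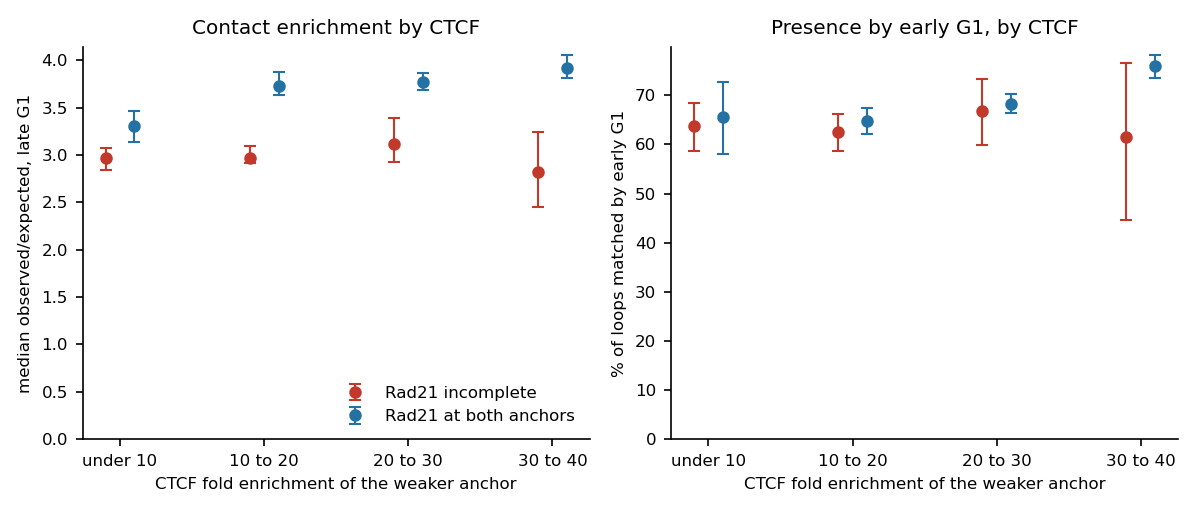
Loops with incomplete Rad21 (red, left of each pair) and complete loops (blue) in 4 bins of the weaker anchor's late-G1 CTCF fold, as the median observed/expected ratio (left panel) and the percent with a match by early G1 (right panel); bars are 95% intervals of counting error. At a fold of 10 to 20 the ratio is 2.97 against 3.72, while the shares matched by early G1 are 62.5% and 64.8%.

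Few lacking anchors had a Rad21 peak in the lists that the rule did not use, all of which were smaller than the late-G1 list. The late-G1 list held 18958 Rad21 peaks, against 15762 for mid G1 and 13625 for asynchronous cells. There were 8694 for early G1, 7995 for ana/telophase and 596 for pro-metaphase. How far list size accounts for the low shares was not tested. In pro-metaphase 3 of 1393 lacking anchors had a Rad21 peak, 0.215%, against 5.47% of bearing anchors, 6.77% of complete-loop anchors and 4.39% of all anchors of loops under 500 kb. In ana/telophase 34 lacking anchors had one, 2.44%, against 58.6% of bearing, 60.9% of complete-loop and 40.1% of all anchors. In early G1 it was 15 lacking anchors, 1.08%, against 70.5% of bearing, 72.7% of complete-loop and 48.0% of all anchors. Mid G1 had the highest share, with 138 lacking anchors, 9.91% (8.39 to 11.6), against 91.8% of bearing, 93.3% of complete-loop and 63.2% of all anchors. In asynchronous cells 83 lacking anchors, 5.96% (4.77 to 7.33), had a peak, against 85.5% of bearing, 88.7% of complete-loop and 59.1% of all anchors. At least 1 of these 5 lists held a peak at 217 lacking anchors, 15.6%, against 94.4% of bearing and 95.8% of complete-loop anchors, and 7 lacking anchors had Rad21 in 3 or more of them. The median Rad21 fold of the peaks found at lacking anchors was 5.15 in mid G1 and 5.34 in asynchronous cells, against 12.0 and 10.0 at bearing anchors in the same 2 lists.

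Rad21 in these other lists was also compared at like CTCF fold. At a late-G1 CTCF fold of 20 to 30, 30 of 254 lacking anchors had Rad21 in mid G1, 11.8%, against 92.8% of 390 bearing and 93.2% of 3446 complete-loop anchors. In the asynchronous list the shares in that bin were 14.2% of lacking, 87.7% of bearing and 87.9% of complete-loop anchors. At 40 and over, 4 of 25 lacking anchors had Rad21 in mid G1. Anchors of the same CTCF bin thus differed in Rad21 in lists other than the one that sorted them. They were sorted by late-G1 Rad21, so these shares also reflect how far Rad21 peaks recur between lists. Whether CTCF strength accounts for the difference was not tested. With the smaller asynchronous Rad21 list in place of the late-G1 list, 2354 loops met the rule. Mid-G1 Rad21 was then listed at 34.3% of lacking anchors, against 9.91% with the late-G1 list. The share of lacking anchors with mid-G1 Rad21 thus depended on the list that sorted them.

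**Figure D4:**
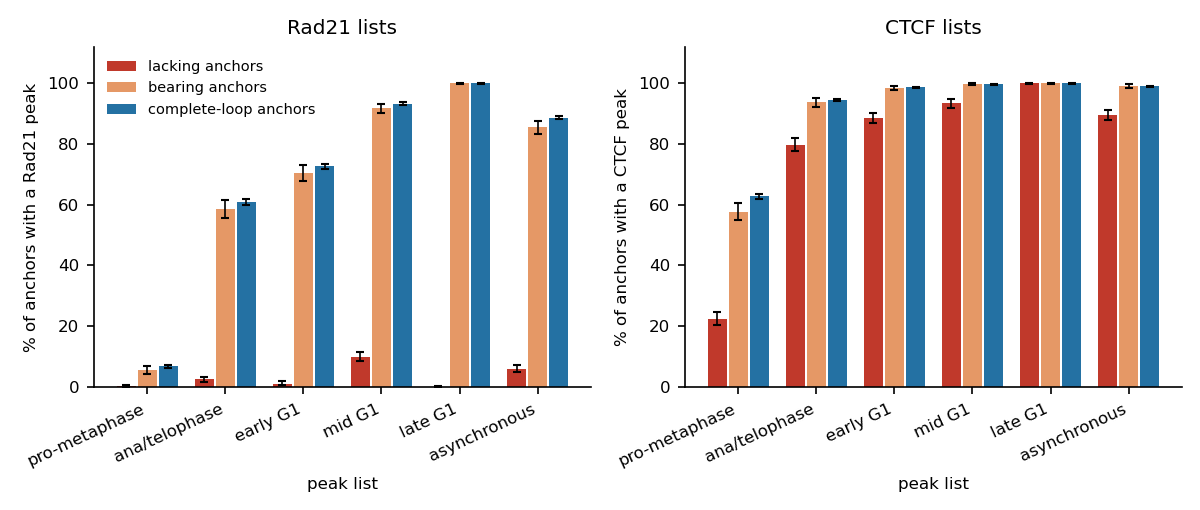
Percent of lacking anchors (red), bearing anchors (orange) and complete-loop anchors (blue) with a Rad21 peak (left panel) or a CTCF peak (right panel) in each of the 6 lists; bars are 95% intervals of counting error, and the late-G1 values are set by the rule. Outside late G1, Rad21 was listed at no more than 9.91% of lacking anchors, while CTCF was listed at 22.4% of them in pro-metaphase and at 79.8% to 93.5% in the other lists.

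Some loops had their missing Rad21 listed in another stage. For 187 loops every lacking anchor had Rad21 in another list. Their weaker CTCF anchor had a median fold of 15.2 (13.7 to 16.8), against 12.4 (11.9 to 12.9) in the 1055 loops with none. Their median ratio was 3.23 (3.00 to 3.48), against 2.96 (2.92 to 3.01) in those 1055 loops, and 58.8% (51.4 to 66.0) of them were matched by early G1, against 64.6% (61.7 to 67.5). The gap from a lacking anchor to the nearest late-G1 Rad21 peak had a median of 23.3 kb, 228 lacking anchors (16.4%) had a peak within 5 kb, and 63 had one within 1 kb. At 577 anchors with CTCF and no Rad21 in loops with CTCF at 1 anchor, the median gap was 18.3 kb (15.1 to 21.8), against 23.3 kb (21.0 to 25.4) at lacking anchors. The median ratio was 2.90 in the 354 loops with such a peak within 10 kb of a lacking anchor and 3.31 in the 271 loops whose nearest peak lay 50 kb or more away. The nearest peak lay on the inner side of the loop for 39.2% of lacking anchors.

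Complete loops with weak Rad21 had a contact ratio and an early-G1 share near those of the members, and higher CTCF. Just inside the condition for complete loops, 427 had a weaker anchor with a Rad21 fold of 3 to 5. Their median ratio was 3.11, 62.8% had a match by early G1, and their weaker CTCF anchor had a median fold of 18.5, above the 12.7 of the members. Another 12 complete loops had a Rad21 fold under 3 there, with a median ratio of 3.32 (2.14 to 5.42) and a weaker-anchor CTCF fold of 8.98, and 91.7% (61.5 to 99.8) of them had a match by early G1. For the 2273 complete loops with a weaker Rad21 fold of 5 to 10, the ratio was 3.54 and the CTCF fold 21.9. The share matched by early G1 was 63.5% (61.5 to 65.5) there, so an early-G1 share near that of the members was not confined to weak Rad21. Among the 2645 complete loops with a weaker Rad21 fold of 10 or more, the ratio was 4.28, the share matched by early G1 was 76.4% and the CTCF fold was 28.5. Whether Rad21 binding just below the calling threshold was present at lacking anchors cannot be read from peak lists.

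In loops with incomplete Rad21 matched in ana/telophase, the contact ratio did not grow by late G1 as it did in matched complete loops. Of several matches of a loop the nearest is used here, and values are relative to each stage's own expected value. The 91 loops with incomplete Rad21 and a match in ana/telophase had a median ratio of 3.18 in ana/telophase and 3.02 in late G1, and 30 of the 91 were higher in late G1. The 467 complete loops with a match in ana/telophase had 3.34 in ana/telophase and 4.43 in late G1, and 370 of them, 79.2%, were higher in late G1. The median change was -0.41 in the loops with incomplete Rad21 and 1.26 in complete loops. Both ana/telophase medians cover only loops that passed that list's calling, so they do not show that the ratios of the 2 kinds were alike in that stage. The changes to late G1 rest on the same selected loops, and they include the late-G1 difference between the 2 kinds given above. Growth was also not seen in the 211 loops with CTCF at 1 anchor and a match in ana/telophase. Taking the match with the highest ratio, their median was 3.43 in ana/telophase and 2.94 in late G1.

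From early G1 on, the same order was seen with smaller changes. The 732 loops with incomplete Rad21 that had matches in early and mid G1 had a median ratio of 3.33 at early G1, 3.50 at mid G1 and 3.11 at late G1. The 3577 complete loops had 3.90, 4.34 and 4.07 in those stages. Late G1 was above early G1 in 40.6% of the loops with incomplete Rad21 and in 58.5% of complete loops. Taking the match with the highest ratio, these shares were 32.2% and 53.6%. They were then 26.9% in loops with CTCF at 1 anchor and 41.7% in all loops under 500 kb. The fall in the 732 loops depended on neighbours and on the match chosen. Without loops that had another complete loop within 20 kb at both anchors, 425 loops with incomplete Rad21 had 3.11, 3.22 and 3.10 in early, mid and late G1, and 2470 complete loops had 3.92, 4.40 and 4.22. With that restriction the ana/telophase contrast remained, at 3.05 in ana/telophase and 2.89 in late G1 in 62 loops with incomplete Rad21 and 3.38 and 4.89 in 313 complete loops.

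**Figure D5:**
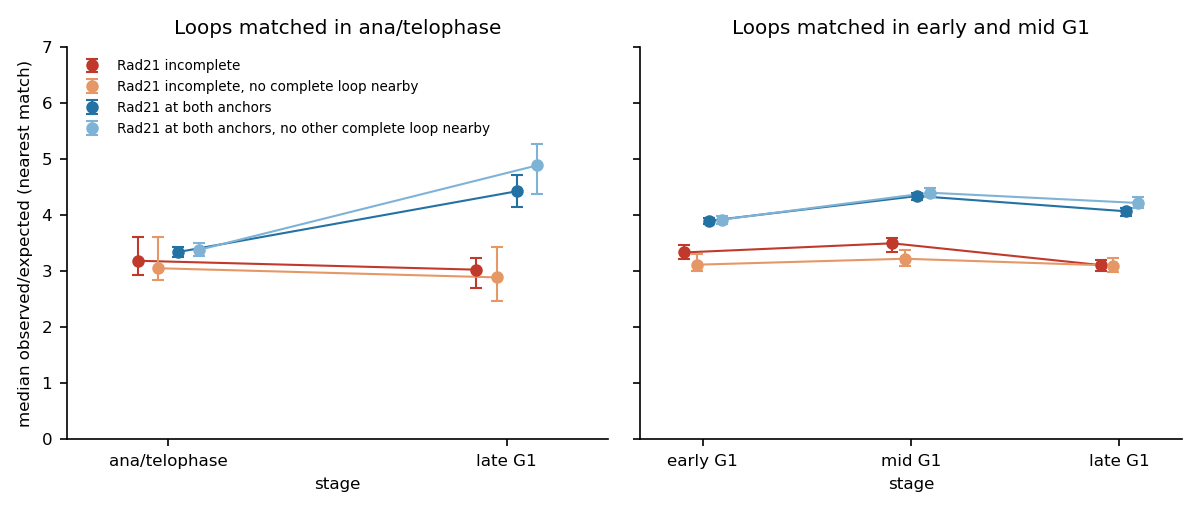
Median observed/expected ratio by stage of loops with incomplete Rad21 (red, and orange without those near a complete loop) and complete loops (blue, and light blue without those near another complete loop), for loops matched in ana/telophase (left panel) and in early and mid G1 (right panel), with the nearest match; bars are 95% intervals of counting error. In the left panel red is 3.18 and 3.02 and blue 3.34 and 4.43 in ana/telophase and late G1.

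Of the 1272 loops, 395, or 31.1% (28.5 to 33.7), had a complete loop within 20 kb at both anchors. Of the 5357 complete loops, 1378, or 25.7% (24.6 to 26.9), had another complete loop that close. In the 395 cases the loop with incomplete Rad21 had the higher ratio in 71, 18.0%. A match by early G1 was found for 81.0% of these 395 loops and for 55.9% (52.5 to 59.2) of the 877 others. Matching within 20 kb does not tell such a loop from its neighbour, and a complete loop farther away than 20 kb could still share a match with one of the 877. The median ratios were alike, 3.00 in the 395 loops and 2.97 in the 877, and so were the sizes, 160 kb in both. The bearing anchor overlapped an anchor of a complete loop in 801 of 1151 cases, 69.6%, and the lacking anchor in 202 of 1393, 14.5%. Anchors of complete loops hold late-G1 Rad21 by definition and lacking anchors do not, so this contrast is largely set by the rule. How often other anchors with Rad21 overlap an anchor of a complete loop was not computed.

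The lacking end was as often upstream (560 loops) as downstream (591 loops), in genome coordinates. Lacking anchors were less often at other Hi-C features than bearing and complete-loop anchors. Stripes are lines of contact between 1 anchor and a continuous stretch beside it. In late G1 a stripe ran from the anchor into the loop at 4.45% (3.43 to 5.67) of lacking anchors, 28.7% (26.1 to 31.4) of bearing anchors and 22.8% (22.0 to 23.6) of complete-loop anchors. The difference was also present at like CTCF strength from a late-G1 CTCF fold of 10 up, and was not seen below it. At a fold under 10 a stripe was found at 4.91% (2.98 to 7.56) of lacking anchors, 1 of 17 bearing anchors and 2.34% (0.641 to 5.88) of complete-loop anchors. At 10 to 20 the shares were 4.23% of lacking anchors, 18.9% of bearing anchors and 13.1% of complete-loop anchors. At 20 to 30 they were 3.94% of lacking anchors, 27.7% of bearing anchors and 21.0% of complete-loop anchors. A domain boundary lay within 20 kb of 28.0% of lacking, 44.9% of bearing and 41.8% of complete-loop anchors in late G1. Boundaries were not compared at like CTCF fold. For stripes, boundaries and joined domain ends, the share over all anchors or loops under 500 kb is not given here. The 2 ends of a late-G1 domain were joined by 136 of the 1272 loops, 10.7%, by 14.8% of complete loops and by 5.85% of loops with CTCF at 1 anchor.

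The 121 loops with CTCF but no Rad21 at either anchor had a lower contact ratio than those with Rad21 at 1 anchor over all sizes. Their median size was 130 kb (110 to 160), against 160 kb with Rad21 at 1 anchor, a difference of -30 kb (-52.4 to 1.62) that includes 0. Their median ratio was 2.66, against 3.01 with Rad21 at 1 anchor and 3.78 in complete loops. The difference between the first 2 was -0.35 (-0.51 to -0.16). It was -0.08 (-0.34 to 0.14) under 100 kb and -0.31 (-0.47 to 0.06) at 100 to 190 kb, where the intervals include 0, and the median observed value was 25.9, against 25.4 with Rad21 at 1 anchor. By early G1 57.0% of the 121 loops had a match, against 64.4% with Rad21 at 1 anchor, a difference of -7.35 points (-17.1 to 2.05), and 69.9% of complete loops. Under 100 kb the shares were 52.6% of 38 loops and 74.8% with Rad21 at 1 anchor, a difference of -22.2 points (-39.8 to -4.66) that excludes 0. The early-G1 difference was 2.41 points (-13.1 to 15.7) at 100 to 190 kb and -5.24 (-27.4 to 15.9) at 200 to 290 kb. At 300 to 390 kb, over 7 loops, it was -26.2 (-53.1 to 17.5). By ana/telophase 17 of 121, 14.0% (8.40 to 21.5), had a match, against 6.43% with Rad21 at 1 anchor and 8.74% of complete loops. The difference was 7.62 points (1.76 to 15.2) from loops with Rad21 at 1 anchor and 5.31 points (-0.39 to 12.8) from complete loops, where the interval includes 0. Of the 121 loops 31.4% were under 100 kb, against 20.0% with Rad21 at 1 anchor. Between these 2 sets the ana/telophase difference was 8.42 points (-3.22 to 24.7) under 100 kb and 7.34 (-1.56 to 20.7) at 100 to 190 kb. At 200 to 290 kb it was 7.33 points (-3.06 to 27.3), and the intervals in these classes include 0. In 91 of the 121 loops neither anchor had Rad21 in any of the 6 lists, and 49 of these 91, 53.8% (43.1 to 64.4), were matched in early G1. Some loops with CTCF and no listed Rad21 at their late-G1 anchors thus had a match as early as early G1 or ana/telophase. Rad21 at the anchors of the matched loops themselves, which can lie up to 20 kb away, was not examined.

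Single loops, in build mm9, show the range. The highest late-G1 ratio among the 1272, 11.9, belonged to a 440 kb loop between chr2:74540001-74560000 and chr2:74980001-75000000. It was first matched in mid G1, with a ratio of 7.80. Its upstream anchor had Rad21 in all 6 lists, with a fold of 5.47 in pro-metaphase, 9.63 at ana/telophase, 24.1 for early G1, 31.7 for mid G1, 35.1 for late G1 and 22.9 in asynchronous cells. Its downstream anchor had none in any list, and the nearest late-G1 Rad21 peak was 86.4 kb away. CTCF at that lacking anchor had a pro-metaphase fold of 28.8 and a late-G1 fold of 31.7, near the 34.3 of its partner in late G1.

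The next ratios, 11.1 and 9.58, were on chromosome 12. A 290 kb loop joined chr12:31270001-31290000 to chr12:31560001-31580000, and its lacking downstream anchor had Rad21 in 3 other lists, with folds of 3.61 in ana/telophase, 7.78 in mid G1 and 5.98 in asynchronous cells. A 270 kb loop joined chr12:87460001-87500000 to chr12:87730001-87760000, and its lacking anchor had Rad21 in mid G1 with a fold of 5.10.

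Loops without Rad21 at either anchor in any list and with the strongest CTCF had first matches at different times, or none before late G1. A 270 kb loop between chr2:26490001-26500000 and chr2:26750001-26780000 had late-G1 CTCF folds of 51.4 upstream and 34.4 downstream. It had matches from ana/telophase on, with an ana/telophase ratio of 3.99, an early-G1 ratio of 6.03, a mid-G1 ratio of 6.11 and a late-G1 ratio of 4.99. Late-G1 Rad21 peaks lay 2.44 kb from its upstream and 5.99 kb from its downstream anchor, just outside both. A 220 kb loop on chromosome 18 had CTCF folds of 21.3 and 38.4, a first match in early G1 and ratios of 3.29, 3.64 and 3.82 in early, mid and late G1. An 80 kb loop from chr2:69700001-69730000 to chr2:69790001-69800000 was called in late G1 alone, with a ratio of 2.41, although CTCF was listed at both anchors from ana/telophase on.

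The strongest ana/telophase match was that of a 40 kb loop between chr2:121280001-121300000 and chr2:121320001-121340000, which had no Rad21 at either anchor in any list. Its ana/telophase ratio was 7.49, its early-G1 ratio 7.02, its mid-G1 ratio 7.17 and its late-G1 ratio 5.98. CTCF at its anchors was listed in pro-metaphase, with folds of 10.85 upstream and 8.42 downstream. The next were a 110 kb loop from chr12:114830001-114850000 to chr12:114940001-114960000 and a 70 kb loop from chr12:114850001-114870000 to chr12:114930001-114950000. These 2 shared 1 match with a ratio of 6.04 in ana/telophase, and their own late-G1 ratios were 2.45 and 2.43.

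The most Rad21 in asynchronous cells at a lacking anchor was a fold of 7.62. It lay at chr9:122320001-122340000, the upstream end of a 300 kb loop to chr9:122620001-122640000 with a ratio of 4.65. The next 2 lacking anchors had an asynchronous Rad21 fold of 7.07 each. One was the downstream anchor chr4:147380001-147410000 of a 50 kb loop from chr4:147330001-147340000, which had a ratio of 1.99 and lay beside a complete loop. The other was chr6:47580001-47600000, the downstream anchor of a 330 kb loop from chr6:47250001-47270000, with a ratio of 6.03 and a late-G1 Rad21 peak 1.06 kb outside it. These lacking anchors were also listed with Rad21 in mid G1.

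The strongest CTCF at a lacking anchor of a loop with Rad21 at the other end had a fold of 60.5 and lay at chr12:70450001-70490000. It formed a 200 kb loop with chr12:70660001-70690000, where CTCF had a fold of 30.8 and Rad21 16.0. No list held Rad21 at the lacking anchor, the nearest late-G1 Rad21 peak was 185 kb away, and the loop's ratio was 6.91 at early G1, 8.42 at mid G1 and 7.18 at late G1. The next 2 were the upstream anchors of a 100 kb loop, chr14:47910001-47930000 to chr14:48010001-48040000, and of a 60 kb loop, chr3:54530001-54560000 to chr3:54600001-54620000. Their lacking anchors had CTCF folds of 55.2 and 52.4, no Rad21 in any list, and loop ratios of 2.92 and 2.86. Strong CTCF at the lacking end was thus found in loops of high and of median ratio.

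Loops with incomplete Rad21 were found on all 20 chromosomes in the lists. Their share of late-G1 loops under 500 kb was lowest on chromosome 16, at 28 of 357 or 7.84% (5.27 to 11.1), and highest on chromosome 12, at 60 of 398 or 15.1% (11.7 to 19.0).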

How the data were processed

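The lists were used as deposited, in build mm9. For ChIP-seq the submitters' processing notes name MACS2 2.1.0, bedtools 2.27.1, Bowtie 0.12.7 and SAMtools 1.7, and for Hi-C HiC-Pro and Bowtie2. Not given in the sources used here are the callers of loops, domains and stripes, and how contact values were normalized. The 6 CTCF and 6 Rad21 lists hold peaks of merged, downsampled replicates, as the deposited peak names show. Each peak has a deposited fold enrichment (a ratio), a −log10 q and a score, all as deposited by the authors. Loop lists give an observed contact signal, an expected value, a p-value and a pixel count, per the file headers, with anchors at least 10 kb wide and clusters of at least 3 pixels in late G1.

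Loop size is the span between both bins of a loop's highest pixel. A protein was assigned to an anchor where they shared at least 1 bp, with the highest fold kept. Loops matched if the gap between anchor intervals was at most 20 kb at both ends. Shares have exact Clopper-Pearson 95% intervals, medians have order-statistic intervals, and the interval of a difference combines those of its 2 parts. Python 3.11.15, numpy 2.4.6, pandas 2.3.3, scipy 1.17.1 and matplotlib 3.10.9 were used, and overlaps and gaps were tested on simulated data against bedtools 2.31.1. Depth per sample is unknown. No list had per-sample columns.

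The members, size classes and alternatives were chosen with earlier results of these data known. Single loops were named by rule: the 3 highest ratios, the 3 with the highest weaker-anchor CTCF among those with no Rad21 in any list, the 3 strongest ana/telophase matches, the 3 highest asynchronous Rad21 folds at a lacking anchor, and the 3 highest CTCF folds at a lacking anchor of a loop with Rad21 at the other. Fold values were compared within a list. Alternatives changed anchor width, peak and loop thresholds, the Rad21 list, the size limit and the match distance. Nearest matches and leaving out loops near a complete loop were alternatives chosen after seeing the data. Gene positions at hand are of another build, so no gene or sequence is given. RNA polymerase II, input and Capture-C samples were not analysed here.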

Additional observations from a re-analysis of the deposited data

How the results depend on the processing

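No paired analysis was possible because each deposited list pools its replicates, so no replicate could be left out either. Of 91 values under the alternatives, 69 were counted as unchanged, 22 moved outside the interval of the main value and 0 changed sign. Unchanged values stayed within the interval of the main value, or within 1.5 times for counts. The difference in observed value alone, which has another scale than the ratio, was judged by its sign only. The lower contact ratio and the lower share matched by early G1 relative to complete loops kept their direction under every alternative run. Anchors widened by 10 kb gave a median ratio of 2.91. A Rad21 −log10 q of at least 5 gave Rad21 in mid G1 at 12.4% of lacking anchors. A CTCF fold of at least 10 gave 5.85% of loops with Rad21 at no anchor and a weaker-anchor CTCF fold of 15.6. With the asynchronous Rad21 list, which holds fewer peaks, 2354 loops met the rule, 14.1% had Rad21 at no anchor, the ratio was 3.11, the weaker-anchor CTCF fold was 15.8 and mid-G1 Rad21 was listed at 34.3% of lacking anchors. A size limit of 300 kb gave a ratio of 2.92 and a difference in ratio of -0.67. Matching within 10 kb gave 5.35% by ana/telophase, 57.2% by early G1 and a difference by early G1 of -9.30 points; matching within 40 kb gave 9.28%, 72.1% and -2.91 points. Leaving out loops near another complete loop, an alternative chosen after seeing the data, gave 55.9% by early G1, a difference of -9.72 points, a difference in ratio of -0.95 and a median change in ratio since early G1 of -0.14. Taking the match with the highest ratio gave -0.39 for that change, and the nearest match -0.15. Read depth per stage is unknown, so a missing peak or loop is one that was not called, and a later first match was not told from later detection.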
